A study of Mus musculus with 8 samples.

Results

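The TRBV12 family receptors described here were the T cell receptors whose beta chain was assigned to exactly 1 of the genes TRBV12-1 and TRBV12-2, the pair that antibodies against V beta 5 detect in the mouse. They were carried by 269 of the 2920 brain cells with a beta chain and belonged to 132 of the 1649 clonotypes with a beta chain. A clonotype is the set of cells of 1 library that were assigned the same receptor rearrangements. It is taken to stand for the descendants of a single T cell, although not every chain was read in every cell. The joint call TRBV12-2+TRBV13-2 was not counted among them, for the sequence reason given below.

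The study asked how an antibody against CD49d, the alpha 4 integrin chain that T cells use to enter the brain, alters brain immune cells after traumatic brain injury (TBI) in young and aged animals. Male C57BL/6 mice received a controlled cortical impact at 13 to 15 weeks (YTBI) or 80 to 82 weeks of age (ATBI), and all 4 groups were injured. The aged mice were supplied by National Institute on Aging colonies and the young mice by Jackson Laboratory, so age and supplier cannot be told apart. Anti-CD49d antibody (aCD49d, clone PS/2) or an isotype control antibody (clone LTF-2) was given at 300 µg after injury and again every 2 weeks, and brains were taken 2 months post-TBI. CD45+ brain cells of 2 mice were pooled into each library, so that every group, YTBI_Isotype, YTBI_aCD49d, ATBI_Isotype and ATBI_aCD49d, was represented by 1 library and no difference between groups has a replicate check. The libraries held 252, 562, 1004 and 1102 cells with a beta chain, in that order of groups. Differences between libraries are therefore given with 95% intervals that cover counting error only. These are exact Clopper-Pearson intervals for shares and, for differences, those exact limits combined by Newcombe's method (called Newcombe below). As cells of 1 clone are not independent, the intervals of cell shares are too narrow.

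A T cell receptor beta chain is assembled in the thymus from a V, a D and a J segment. The V gene encodes the loops CDR1 and CDR2, which mostly touch the MHC molecule, whereas the CDR3 loop is made at the junction, where bases are trimmed and added at random, and mostly touches the peptide. TRBV12-1 is the V beta 5.2 gene of the older nomenclature and TRBV12-2 the V beta 5.1 gene. T cells with V beta 5 are deleted in mouse strains that present endogenous retroviral superantigens on the MHC molecule I-E. C57BL/6 mice lack I-E and keep them. When a T cell with a given receptor divides, every daughter cell inherits the same CDR3. The share of clonotypes therefore counts each receptor found in the brain once, whereas the share of cells also reflects the size of the clones.

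In the GRCm38 assembly, Trbv12-1 (ENSMUSG00000095574.2) lies on the plus strand at chr6:41113550-41114067 and Trbv12-2 (ENSMUSG00000094525.2) at chr6:41118851-41119364, with Trbv13-1 between them and Trbv13-2 directly after them. Their V exons, of 293 bases each, differed at 32 bases, an identity of 89.1%. The loop sequences below, read from the deposited contigs, are shown because they are what tells the genes apart, with capitals marking the bases that differ between TRBV12-1 and TRBV12-2. All sequences are written 5′ to 3′.
TRBV12-1 CDR1: tctggacatAGcAAt
TRBV12-2 CDR1: tctggacatCTcTCt
TRBV12-1 CDR2: cattatgaAaaGGtggag
TRBV12-2 CDR2: cattatgaTaaAAtggag
joint call CDR1: aataaccacaacaac
joint call CDR2: tcatatggtgctggcagc
CDR1 differed at 4 of 15 bases and CDR2 at 3 of 18. All 132 TRBV12-1 contigs and all 137 TRBV12-2 contigs matched their own GRCm38 gene exactly over the 270 bases of framework and loops that were compared. The 387 contigs with the joint call all carried the CDR1 and CDR2 of TRBV13-2, and 383 of them matched TRBV13-2 over the full stretch. Their alpha partners differed from those of TRBV12 as well. The TRAV11-TRAJ18 rearrangement that defines invariant NKT cells was present in 58 of the 296 joint-call cells with an alpha chain (19.6%, 95% interval 15.2 to 24.6%) and in 0 of the 211 TRBV12 cells with one, which allows a share of up to 1.42% by 3 counts (exact interval 0 to 1.73%). The alpha rearrangement of MAIT cells, TRAV1-TRAJ33, was also present in 0 TRBV12 cells.

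At the point where the V segment is joined, the pair could not be told apart. The sequences below, read from GRCm38, begin with the 15 bases that the V gene can give to the CDR3 and continue into the flank that is cut off during recombination, with the heptamer of the recombination signal in capitals.
Trbv12-1, chr6:41114053-41114106, plus strand: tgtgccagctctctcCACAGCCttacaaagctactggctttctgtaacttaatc
Trbv12-2, chr6:41119350-41119403, plus strand: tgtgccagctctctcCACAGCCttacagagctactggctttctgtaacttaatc
The V ends were identical and the flanks of 39 bases differed at 1 base. The heptamer CACAGCC, searched directly after the V exon on the coding strand, was found at 4 of 22 Trbv genes (18.2%), and the consensus heptamer CACAGTG at 8 (36.4%). A beta CDR3 of TRBV12-1 can thus have the same bases as one of TRBV12-2, and the assignment rests on the upstream sequence.

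TRBV12 made up a similar share of the clonotypes in every library, whereas its share of cells was highest in aged mice given aCD49d. TRBV12 accounted for 14 of 220 beta-chain clonotypes in YTBI_Isotype (6.36%, 95% interval 3.52 to 10.4%) and 32 of 453 in YTBI_aCD49d (7.06%, 4.88 to 9.83%). The aged libraries had 40 of 449 (8.91%, 6.44 to 11.9%) with isotype and 46 of 527 (8.73%, 6.46 to 11.5%) with aCD49d. All 4 intervals overlapped. It was carried by 17 beta-chain cells of YTBI_Isotype (6.75%, 3.98 to 10.6%) and 45 of YTBI_aCD49d (8.01%, 5.90 to 10.6%). In aged mice it was carried by 57 cells with isotype (5.68%, 4.33 to 7.29%) and 150 with aCD49d (13.6%, 11.6 to 15.8%). The interval of the last library lay above the other 3.

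**Figure D1:**
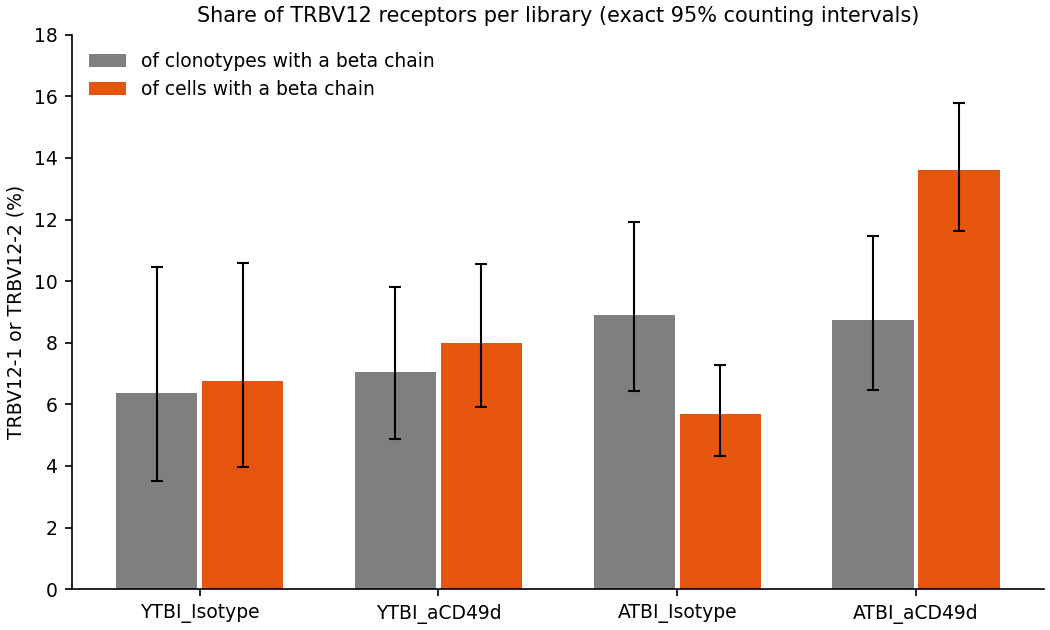
Percentage of clonotypes (grey) and of cells (orange) with a beta chain that used TRBV12-1 or TRBV12-2 in each library, with exact 95% intervals for counting error as bars. The clonotype shares lie between 6.36 and 8.91%, and the cell share of ATBI_aCD49d, 13.6%, stands above those of the other libraries.

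In aged mice, the share of TRBV12 cells was 7.93 percentage points higher with aCD49d than with isotype (Newcombe 95% interval 5.39 to 10.5), while the share of TRBV12 clonotypes differed by -0.180 points (-3.96 to 3.51). In young mice, the cell share differed by 1.26 points (-3.11 to 5.03) and the clonotype share by 0.700 points (-3.93 to 4.66), and both intervals included 0. Between the ages, the share of cells was 5.60 points higher in aged than in young mice under aCD49d (2.37 to 8.63), and differed by -1.07 points under isotype (-5.13 to 2.14). Each TRBV12 clonotype had on average 1.21 cells in young mice given isotype and 1.41 in those given aCD49d, and in aged mice 1.43 with isotype and 3.26 with aCD49d. A single clone of 51 cells contributed to the aged difference. Without the largest TRBV12 clone of each library, the cell share in ATBI_aCD49d was 9.42% (7.72 to 11.3%) and the aged difference 4.79 points (2.52 to 7.07). Without these clones, an alternative chosen after seeing the data, the difference of aged from young mice under aCD49d was 2.57 points (-0.392 to 5.32), and its interval included 0.

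Among 18 TRBV families, TRBV12 had rank 2 by clonotypes over the 4 libraries, after TRBV13 with 498 clonotypes (joint calls included) and just before TRBV3 with 130, TRBV19 with 114 and TRBV1 with 106. Within libraries it had rank 4 in both young libraries (tied with TRBV16 and TRBV5 in YTBI_Isotype), rank 2 in ATBI_Isotype and rank 4 in ATBI_aCD49d. In each library, the 95% interval of TRBV12 overlapped that of TRBV3, its neighbour in this order, and the interval of TRBV13 lay above it. By cells TRBV12 had rank 3 in both young libraries (tied with TRBV5 in YTBI_Isotype), rank 5 in ATBI_Isotype and rank 3 in ATBI_aCD49d, where TRBV3 held 14.0% of cells against 13.6%.

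TRBV12-1 and TRBV12-2 contributed nearly equal numbers of clonotypes. TRBV12-1 was found in 68 clonotypes and 132 cells, and TRBV12-2 in 64 clonotypes and 137 cells, and 0 cells carried both. TRBV12-1 made up 8 of 14 TRBV12 clonotypes of YTBI_Isotype (57.1%), 16 of 32 of YTBI_aCD49d (50%), 19 of 40 of ATBI_Isotype (47.5%) and 25 of 46 of ATBI_aCD49d (54.3%), and every interval included 50%. In cells the order of the genes changed between libraries. TRBV12-1 counted 10, 28, 31 and 63 cells and TRBV12-2 counted 7, 17, 26 and 87, in the order YTBI_Isotype, YTBI_aCD49d, ATBI_Isotype and ATBI_aCD49d. TRBV12-2 thus outnumbered TRBV12-1 in ATBI_aCD49d only, where 51 of its 87 cells were 1 clone.

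**Figure D2:**
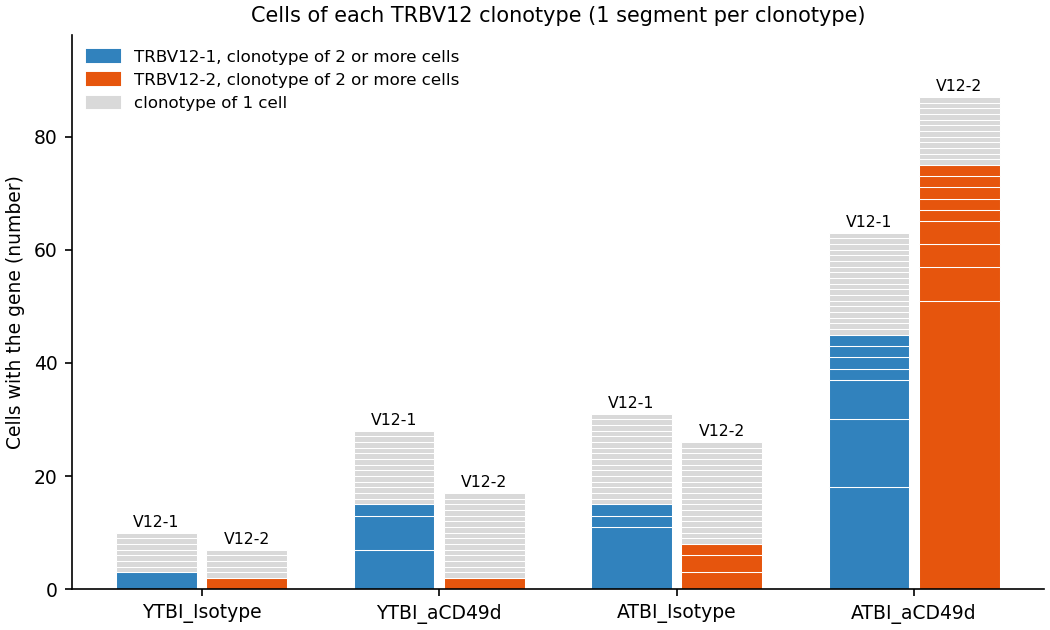
Number of cells with TRBV12-1 (left bar of each pair) and TRBV12-2 (right bar) in each library, where each segment is 1 clonotype and grey segments are clonotypes of 1 cell. In ATBI_aCD49d, the lowest orange segment is the clone of 51 cells and the lowest blue segment a clone of 18 cells.

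TRBV12 cells were less often clonal than the pooled cells with other beta chains in ATBI_Isotype and more often clonal in ATBI_aCD49d. Cells were counted as clonal if 2 or more cells of the library shared their deposited clonotype. Clonal cells were 6 of 17 TRBV12 cells (35.3%) of YTBI_Isotype and 17 of 45 (37.8%) of YTBI_aCD49d. They were 23 of 57 (40.4%) in aged mice given isotype and 120 of 150 (80%) in those given aCD49d. The corresponding shares among cells with other beta chains of the same library were 18.7, 25.3, 65.3 and 56.3%. TRBV12 cells were thus less often clonal than other cells in ATBI_Isotype, by 24.9 points (difference -24.9, 95% interval -38.1 to -10.7), and more often clonal in ATBI_aCD49d, by 23.7 points (15.7 to 30.6). In the young libraries the differences were 16.6 points for isotype (-5.24 to 43.4) and 12.4 points for aCD49d (-2.13 to 28.6), with intervals that included 0. Without the largest TRBV12 clone of each library, the clonal share of TRBV12 cells was 26.1% in ATBI_Isotype and 69.7% in ATBI_aCD49d. Over V genes the order in the aged libraries was mixed. Of 17 TRBV families present in both, TRBV12 was 1 of 6 with more cells per clonotype in ATBI_aCD49d than in ATBI_Isotype, 10 had fewer and 1 the same. TRBV3 had 1.29 and 3.28 cells per clonotype in ATBI_Isotype and ATBI_aCD49d, beside 1.43 and 3.26 for TRBV12 and 1.35 and 4.67 for TRBV10. By contrast, TRBV14 had 12.6 and 1.40 and TRBV19 had 7.48 and 2.40. TRBV14 and TRBV19 held 20.1 and 18.6% of the beta-chain cells of ATBI_Isotype and so weighed heavily in its pooled comparison. The low value of TRBV12 in ATBI_Isotype was not particular to it. Other families lay on both sides of it there, such as TRBV13 (joint calls included) with 1.27 and TRBV1 with 2.87 cells per clonotype. Joint-call cells were clonal in 44.2% of cases in ATBI_Isotype and in 73.5% in ATBI_aCD49d, or 28.3 and 45.3% without the largest joint-call clone of each library, which in ATBI_aCD49d held 101 of 196 cells.

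**Figure D3:**
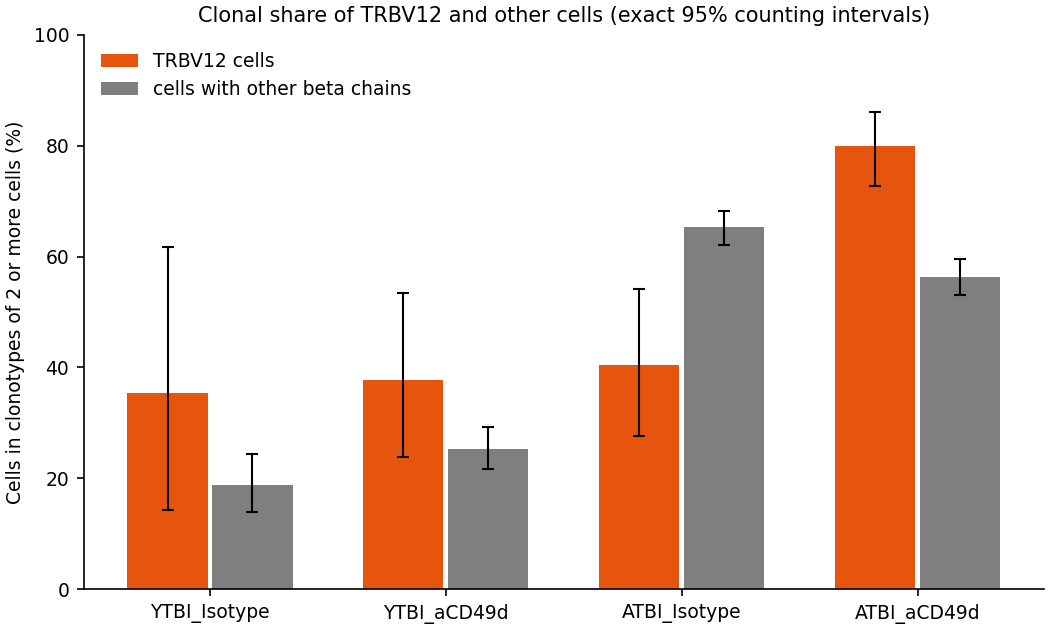
Percentage of cells in clonotypes of 2 or more cells, for TRBV12 cells (orange) and for cells with other beta chains (grey) of the same library, with exact 95% intervals for counting error as bars. TRBV12 cells lie below the others in ATBI_Isotype (40.4 against 65.3%) and above them in ATBI_aCD49d (80 against 56.3%). The other cells are pooled over V families, which differed among themselves.

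Both aged differences were recomputed without the clone that contributed most to each. In ATBI_Isotype, leaving out the largest clone with another beta chain gave a difference of -20.5 points (-33.7 to -6.29). Leaving out its 11-cell TRBV12 clone instead gave -39.2 points (-51.4 to -23.8). In ATBI_aCD49d, leaving out the 51-cell TRBV12 clone gave 13.4 points (2.85 to 22.8). Counting each clonotype once, by the same deposited sizes, gave the same order in ATBI_aCD49d, where 16 of 46 TRBV12 clonotypes (34.8%) and 65 of 481 others (13.5%) were clonal, a difference of 21.3 points (7.42 to 37.0). In ATBI_Isotype the corresponding values were 6 of 40 (15%) and 80 of 409 (19.6%), which differed by -4.56 points (-14.7 to 10.7). In YTBI_Isotype 3 of 14 TRBV12 clonotypes (21.4%) and 15 of 206 others (7.28%) were clonal, a difference of 14.1 points (-3.20 to 43.7). In YTBI_aCD49d these were 4 of 32 (12.5%) and 35 of 421 (8.31%), a difference of 4.19 points (-5.31 to 20.9). The last 3 intervals included 0. The comparisons of this paragraph were chosen after the values had been seen.

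Between the 2 genes, the clonal share differed in both aCD49d libraries, and each difference changed when 1 clone was left out. In YTBI_aCD49d, 53.6% of TRBV12-1 cells and 11.8% of TRBV12-2 cells were clonal, a difference of 41.8 points (10.2 to 63.3), and 13 of the 15 clonal TRBV12-1 cells were in clones of 7 and 6 cells. Without the clone of 7 cells the difference was 26.3 points (-5.43 to 52.0), and the interval included 0. In ATBI_aCD49d, 71.4% of TRBV12-1 cells and 86.2% of TRBV12-2 cells were clonal (difference -14.8, -29.1 to -0.773). Without the 51-cell clone, 24 of 36 TRBV12-2 cells (66.7%) were clonal, and the difference turned to 4.76 points (-14.8 to 25.4). In the isotype libraries the intervals of this difference included 0.

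Of the 132 TRBV12 clonotypes, 28 had at least 2 TRBV12 cells and 8 had at least 5, of which 6 used TRBV12-1 and 2 used TRBV12-2. YTBI_Isotype had 0 of these 8, YTBI_aCD49d 2, ATBI_Isotype 1 and ATBI_aCD49d 5. The 5 clones of ATBI_aCD49d held 94 of its 150 TRBV12 cells (62.7%). The beta CDR3 sequences of the 8 clones with at least 5 cells are printed below, with that of the largest clone of YTBI_Isotype. Capitals mark the bases between the germline V match and the germline J match, that is, the D segment with added bases.
ATBI_aCD49d, TRBV12-2/TRBJ2-3, 51 cells: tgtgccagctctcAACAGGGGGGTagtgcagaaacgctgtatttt
ATBI_aCD49d, TRBV12-1/TRBJ1-1, 18 cells: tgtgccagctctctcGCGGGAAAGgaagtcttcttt
ATBI_aCD49d, TRBV12-1/TRBJ1-4, 12 cells: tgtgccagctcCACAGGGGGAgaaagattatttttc
ATBI_aCD49d, TRBV12-1/TRBJ2-1, 7 cells: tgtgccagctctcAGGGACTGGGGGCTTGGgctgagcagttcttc
ATBI_aCD49d, TRBV12-2/TRBJ2-3, 6 cells: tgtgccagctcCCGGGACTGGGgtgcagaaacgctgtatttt
ATBI_Isotype, TRBV12-1/TRBJ2-5, 11 cells: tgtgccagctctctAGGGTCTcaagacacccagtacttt
YTBI_aCD49d, TRBV12-1/TRBJ1-4, 7 cells: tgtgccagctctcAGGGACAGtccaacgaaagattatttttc
YTBI_aCD49d, TRBV12-1/TRBJ2-4, 6 cells: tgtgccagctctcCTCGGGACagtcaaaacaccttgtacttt
YTBI_Isotype, TRBV12-1/TRBJ1-2, 3 cells: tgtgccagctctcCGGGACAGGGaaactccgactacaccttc
Within each of these 9 clones, every TRBV12 cell had the same beta CDR3 bases. Their CDR3 lengths ran from 12 to 15 residues.

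The largest TRBV12 clone held 4.63% of the beta-chain cells of ATBI_aCD49d (51 of 1102, 3.46 to 6.04%) and was the clone of size rank 4 in that library, listed with 52 cells in the deposited table. An alpha chain was recovered in 39 of its 51 cells and was the same TRAV12-2/TRAJ32 rearrangement in all 39. The beta chain was read with a median of 10 UMIs a cell (1 to 26). The clone of 18 cells (1.63%, 0.971 to 2.57%) carried 2 alpha rearrangements, TRAV14D-1/TRAJ6 in 16 cells and TRAV11/TRAJ17 in 11. Alpha rearrangement can proceed on both chromosomes of a T cell. The alpha CDR3 sequences of these leading clones are given so that the receptors can be followed as pairs.
ATBI_aCD49d, 51 cells, TRAV12-2/TRAJ32: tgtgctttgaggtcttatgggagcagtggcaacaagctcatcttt
ATBI_aCD49d, 18 cells, TRAV14D-1/TRAJ6: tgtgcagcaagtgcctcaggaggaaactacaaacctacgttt
ATBI_aCD49d, 18 cells, TRAV11/TRAJ17: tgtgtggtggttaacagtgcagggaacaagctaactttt
The TRAV11 chain of this clone was the single TRAV11 rearrangement among TRBV12 clonotypes, and its TRAJ17 segment differs from the TRAJ18 of invariant NKT cells. The clones of 12, 7 and 6 cells in ATBI_aCD49d were paired with TRAV6-6/TRAJ58, TRAV12D-2/TRAJ32 and TRAV14-2/TRAJ34, read in 6, 4 and 6 cells. The clones of 7 and 6 cells in YTBI_aCD49d also had 1 alpha rearrangement each. These were TRAV12-2/TRAJ30, read in 6 of 7 cells, and TRAV6D-5/TRAJ42, read in 5 of 6.

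A receptor pair with the same residues in both chains occurred in 2 libraries. The 3-cell clone of YTBI_Isotype and a 1-cell clonotype of ATBI_Isotype both used TRBV12-1/TRBJ1-2 with a CDR3 of 14 residues and TRAV10N/TRAJ22 with a CDR3 of 13 residues. Neither chain had the same bases in the pair, which differed at 2 of 42 bases in beta and at 2 of 39 in alpha. Capitals mark these differences in the beta chains.
YTBI_Isotype, TRBV12-1/TRBJ1-2, 3 cells: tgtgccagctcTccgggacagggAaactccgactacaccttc
ATBI_Isotype, TRBV12-1/TRBJ1-2, 1 cell: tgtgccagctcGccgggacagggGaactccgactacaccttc
Over all V genes, and leaving out invariant NKT clonotypes, 3 of 1357 paired receptors were shared between libraries by residues, of which this was the 1 with TRBV12, and 0 of 1362 were shared by bases. None of the 131 TRBV12 beta CDR3 base sequences occurred in more than 1 library. By residues 1 of 129 did (0.775%), against 9 of 1518 among other beta chains (0.593%).

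TRAV10 with TRAJ22 was found in 4 of the 110 TRBV12 clonotypes with an alpha chain, and all 4 used TRBV12-1. Both receptors of the pair above belonged to this group, as did the 11-cell clone of ATBI_Isotype. Their alpha CDR3 sequences follow, with capitals marking bases that differ from the chain of the YTBI_Isotype clone.
YTBI_Isotype, 3 cells, TRAV10N, beta TRBJ1-2: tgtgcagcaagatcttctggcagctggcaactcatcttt
ATBI_Isotype, 1 cell, TRAV10N, beta TRBJ1-2: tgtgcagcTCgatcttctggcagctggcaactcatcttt
ATBI_Isotype, 1 cell, TRAV10N, beta TRBJ2-7: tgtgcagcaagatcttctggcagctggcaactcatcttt
ATBI_Isotype, 11 cells, TRAV10, beta TRBJ2-5: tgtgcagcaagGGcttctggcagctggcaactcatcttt
All 4 alpha loops had 13 residues, 3 of them were the same in residues, and that of the 11-cell clone differed by 1 residue. In the 11-cell clone, the alpha chain was read in 7 cells. They were among the 41 TRBV12 clonotypes with an alpha chain of the isotype libraries (9.76%, 2.72 to 23.1%), and 0 were among the 69 of the aCD49d libraries, where 3 counts would be 4.35% and the exact interval is 0 to 5.21%, so that the intervals overlapped. The TRAV10-TRAJ22 combination occurred in 4 of 60 TRBV12-1 clonotypes with an alpha chain (6.67%, 1.85 to 16.2%), in 0 of 50 TRBV12-2 clonotypes (3 counts would be 6%, exact interval 0 to 7.11%, which overlaps that of TRBV12-1) and in 5 of 1223 other clonotypes (0.409%, 0.133 to 0.951%). In residues, the same alpha CDR3 as that of the YTBI_Isotype clone was present in 7 cells of all 4 libraries. These cells include those of the TRBV12-1 receptors above with the same residues. The cells of the aCD49d libraries among them had no TRBV12 chain read, and their beta chains, if any, were not examined. The TRAV10-TRAJ22 group was singled out after its values had been seen.

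The alpha partners of TRBV12 were diverse. An alpha chain was recovered in 70.6% of TRBV12 cells of young mice given isotype and in 82.2% of those given aCD49d, and in aged mice in 70.2 and 81.3%, and every interval of the difference from other cells of the library included 0. Over 110 clonotypes, 16 of the 19 TRAV families and 36 of the 43 TRAJ segments seen in the series were paired with TRBV12. The 5 TRAV families with the most TRBV12 clonotypes were TRAV12 and TRAV7 with 16 each (14.5%), TRAV6 with 15 (13.6%), TRAV9 with 13 (11.8%) and TRAV10 with 12 (10.9%). TRAV10 made up 4.74% of the other clonotypes, 6.17 points less than in TRBV12 (0.850 to 13.6). It was the one of these 5 families whose interval excluded 0, among 19 families compared without correction. The intervals of TRAV12 (2.44 points, -3.87 to 10.6), TRAV7 (1.87, -4.45 to 10.1), TRAV6 (1.37, -4.75 to 9.43) and TRAV9 (3.15, -2.49 to 10.8) included 0. The 12 TRAV10 clonotypes were spread over the libraries as 2, 2, 5 and 3, and 7 used TRBV12-1 and 5 TRBV12-2. TRAV11, which invariant NKT cells use, was found in 1 TRBV12 clonotype (0.909%) and in 9.16% of the others, a difference of -8.25 points (-10.2 to -3.91).

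Pooled over all libraries, the J partners of TRBV12 followed the rest of the repertoire, while TRBJ2-5 differed in the young libraries (below). TRBJ2 segments, which lie farther from the V genes than TRBJ1 and have their own D segment, were used by 10 of 14 TRBV12 clonotypes of YTBI_Isotype (71.4%), 21 of 32 of YTBI_aCD49d (65.6%), 26 of 40 of ATBI_Isotype (65%) and 30 of 46 of ATBI_aCD49d (65.2%). Over all libraries the share was 65.9%, against 63.3% of other beta rearrangements, a difference of 2.60 points (-6.48 to 11.0). The 5 segments with the most TRBV12 clonotypes were TRBJ2-7 with 29 (22.0%), TRBJ2-1 with 20 (15.2%), TRBJ2-5 with 12 (9.09%), and TRBJ1-1 and TRBJ1-4 with 11 each (8.33%). In the pooled libraries, none of the 12 segments had a difference from the other rearrangements whose interval excluded 0. The largest of these 5 differences was that of TRBJ2-1, 4.76 points (-1.11 to 12.2).

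**Figure D4:**
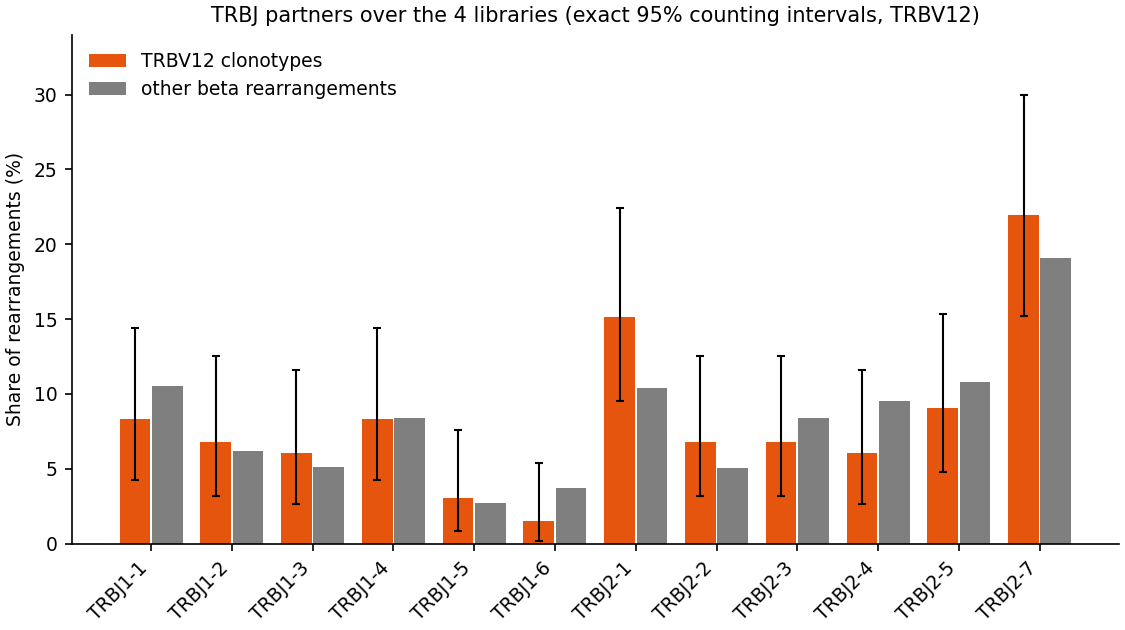
Percentage of TRBV12 clonotypes (orange, exact 95% intervals for counting error) and of other beta rearrangements (grey) that used each TRBJ segment over the 4 libraries. TRBJ2-7 was the most used in both sets, at 22.0 and 19.1%, and each grey bar lies within the interval of the orange bar beside it.

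TRBJ2-5 was found in 0 of the 46 TRBV12 clonotypes of the young libraries, where 3 counts would be 6.52% and the exact interval is 0 to 7.71%. In the aged libraries it was found in 12 of 86 (14.0%, 7.42 to 23.1%), 5 in ATBI_Isotype and 7 in ATBI_aCD49d, and the 2 exact intervals overlapped. Among other beta rearrangements the order was the reverse. They had TRBJ2-5 in 86 of 640 in young (13.4%, 10.9 to 16.3%) and 82 of 919 in aged mice (8.92%, 7.16 to 11.0%). In young mice the interval of TRBV12 lay below that of the other rearrangements, and in aged mice the intervals overlapped. The aged TRBV12 count included the 11-cell clone of ATBI_Isotype and 2 clonotypes of ATBI_aCD49d with the same beta chain. Each age is 2 libraries, and the contrast was singled out after its values had been seen.

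The constant region followed the J segment in every case where it was read. TRBC1 was joined to TRBJ1 and TRBC2 to TRBJ2 in 131 of 132 TRBV12 clonotypes, and in 1 no constant gene was called. A D segment was called in 28 clonotypes (21.2%, against 25.1% of other rearrangements), TRBD1 in 20 and TRBD2 in 8. TRBD2 lies downstream of the TRBJ1 segments and was found with TRBJ1 in 0 cases, whereas TRBD1 was joined to TRBJ2 in 8.

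CDR3 lengths of TRBV12 clonotypes had the same median as those of the other beta chains. In young mice the mean length was 13.8 ± 1.19 residues with isotype (SD over 14 clonotypes) and 14.1 ± 1.18 with aCD49d (32). In aged mice it was 13.7 ± 1.64 with isotype (40) and 13.9 ± 1.16 with aCD49d (46), and the median was 14 in each library. With aCD49d the mean differed from isotype by 0.23 residues in aged (2 standard errors either side, -0.39 to 0.86) and 0.34 in young mice (-0.42 to 1.10). Over all libraries the length was 13.9 ± 1.33 residues (9 to 17) for TRBV12 and 14.0 ± 1.42 (9 to 19) for other rearrangements, a difference of -0.12 residues (-0.36 to 0.12). The mean was 13.9 ± 1.28 for TRBV12-1 and 13.8 ± 1.38 for TRBV12-2, a difference of 0.10 (-0.37 to 0.56), and 14.1 ± 1.33 for clonal and 13.8 ± 1.33 for single-cell clonotypes, a difference of 0.22 (-0.34 to 0.78). All of these intervals included 0.

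**Figure D5:**
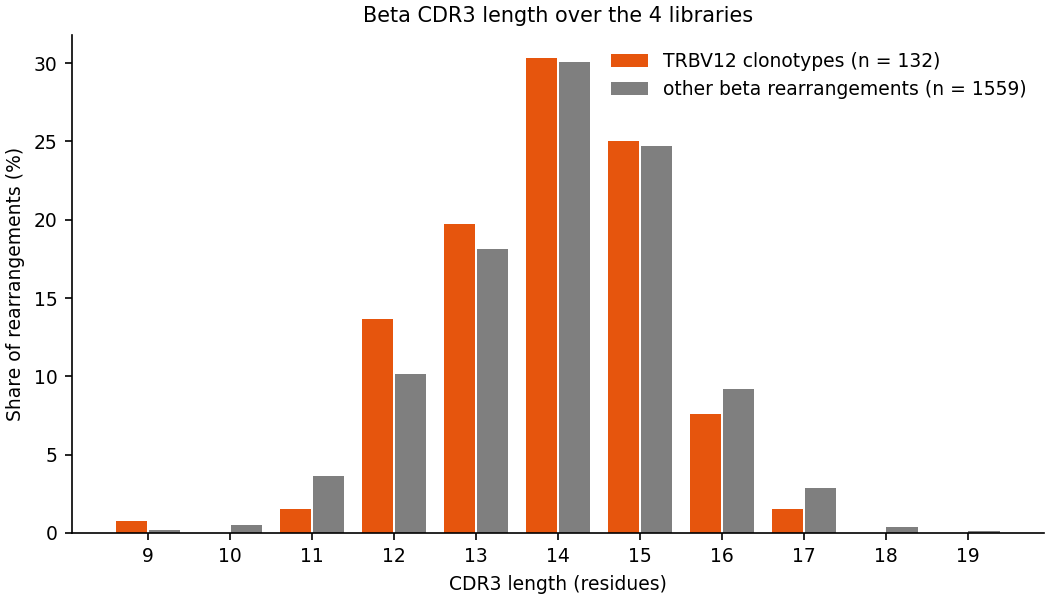
Percentage of TRBV12 clonotypes (orange, n = 132) and of other beta rearrangements (grey, n = 1559) at each CDR3 length in residues, over the 4 libraries. Both sets peak at 14 residues, and TRBV12 spans 9 to 17.

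The whole 15-base V end was kept in 46 of 132 TRBV12 rearrangements (34.8%), 26 with TRBV12-1 and 20 with TRBV12-2. Of the other rearrangements that could be matched, 312 of 1491 (20.9%) kept their whole V end, whose bases differ between V genes. Between the V and J matches lay a median of 10 bases (2 to 21), and 0 rearrangements joined V directly to J. The J segment had lost a median of 3 bases. Clonal and single-cell clonotypes had medians of 10 and 11 bases between V and J.

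Some junctions were shared between TRBV12 clonotypes of the same library. In ATBI_aCD49d, 2 clonotypes had identical TRBV12-1/TRBJ2-5 beta chains and different alpha chains, TRAV9-4/TRAJ24 in a clonotype of 4 cells, 2 of them with the beta chain, and TRAV6-6/TRAJ23 in a clonotype of 2 cells. The shared beta chain is printed once, with capitals for the bases between V and J.
ATBI_aCD49d, TRBV12-1/TRBJ2-5, both clonotypes: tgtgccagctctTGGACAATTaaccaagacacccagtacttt
This was the one TRBV12 beta sequence, of 131, that stood in more than 1 clonotype of a library. In ATBI_Isotype, both genes gave the same CDR3 of 12 residues with TRBJ2-1, through base sequences that differed at 1 base, in capitals.
ATBI_Isotype, TRBV12-2/TRBJ2-1, 1 cell: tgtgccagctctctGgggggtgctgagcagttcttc
ATBI_Isotype, TRBV12-1/TRBJ2-1, 1 cell: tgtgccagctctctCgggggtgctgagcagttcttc
Their alpha chains were TRAV13D-2/TRAJ22 and TRAV3D-3/TRAJ13.

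TRBV12 chains were read with medians of 10, 8, 7 and 10 UMIs a contig in the young isotype, young aCD49d, aged isotype and aged aCD49d libraries, and 2 of the 269 contigs had 1 UMI. A second beta chain accompanied TRBV12 in 3, 1, 1 and 2 cells, which includes 3 of the 17 TRBV12 cells of YTBI_Isotype. No doublet caller was run, since the files hold receptors only, and shares over cells with exactly 1 beta chain stayed within the intervals given (5.79% of cells in YTBI_Isotype). One barcode occurred in 2 libraries and carried no TRBV12 chain.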

How the data were processed

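Single-cell T cell receptor libraries were made by the submitters with the 10x Genomics 5′ v2 immune profiling kit, and the processing notes name Cell Ranger 7.2.0 and the builds mm9 and mm10. The study's methods state that receptor reads were aligned to mm10. The authors deposited filtered contigs per cell, with read and UMI counts, and clonotype tables with the count of cells per clonotype. No transcriptome was used here. Contigs were joined to clonotypes by barcode. A cell counted as TRBV12 when a beta contig was called exactly TRBV12-1 or TRBV12-2. Clonal calls used the deposited clonotype size, which in 4 clonotypes differed from the number of TRBV12 cells. Clonal shares and alpha recovery were compared with other beta chains over cells, or over clonotypes where stated, and V, D and J use, alpha partners and CDR3 length once per clonotype. Shares have exact Clopper-Pearson 95% intervals (scipy 1.17.1, pandas 2.3.3, Python 3.11.15), whose coverage was calculated at set shares. Differences have 95% intervals that combine these exact limits by Newcombe's method. They were checked on a worked case only, and their coverage was not calculated. The matching of junctions was checked on simulated sequences. An upper limit for a count of 0 is 3 counts. Junctions were divided by the longest match to germline V and J ends read from GRCm38 with GENCODE gene positions, which matched 132 of 132 TRBV12 rearrangements. Named were clones of at least 5 cells and the largest of each library. So were the 5 J segments and 5 TRAV families with the most TRBV12 clonotypes, and the 5 families with the most clonotypes. Beta CDR3 base sequences found in several libraries were to be named as well. No TRBV12 base sequence met this rule, and the receptor pair named in its place shared residues only. Doublets were not called. Alternatives were other cell, UMI, clone and clonotype choices. The members and lists were chosen with earlier results of these data known.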

Additional observations from a re-analysis of the deposited data

Results flagged for a closer look

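The difference between aCD49d and isotype had opposite signs in aged and young mice for 3 measures of TRBV12. The share of TRBV12 clonotypes differed by -0.180 points in aged and 0.700 points in young mice, the TRBV12-1 share of TRBV12 clonotypes by 6.85 and -7.14 points, and the TRBJ2 share by 0.217 and -5.80 points. The interval of each of these 6 differences included 0, and whether young and aged mice differed was not tested, as each group is 1 library.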

How the results depend on the processing

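Of 198 values recomputed under alternatives, 175 stayed within the interval of the reported value, 22 moved outside it and 1 difference whose interval excluded 0 changed sign. Requiring 2 UMIs, exactly 1 beta chain or both chains, or defining clonotypes by the beta chain alone, moved 0 values. Counting the joint call as TRBV12, although its sequence is that of TRBV13-2, raised the cell shares to 25.8, 19.6, 13.3 and 31.4% in YTBI_Isotype, YTBI_aCD49d, ATBI_Isotype and ATBI_aCD49d and the clonotype shares to 26.4, 19.4, 19.8 and 20.7%, and lowered the TRBV12-1 share to 13.8, 18, 21.3 and 22.9%. The aged difference in cell share became 18.1 points, and the young differences -6.22 points for cells (-12.9 to 0.134) and -6.94 for clonotypes (-14.2 to -0.00762), against reported differences of 1.26 and 0.700, so that the interval for clonotypes no longer included 0. Without the largest TRBV12 clone of each library, the cell share in ATBI_aCD49d was 9.42%, the aged difference 4.79 points, the difference of aged from young mice under aCD49d 2.57 points with an interval that included 0, and the clonal shares 26.1% in ATBI_Isotype and 69.7% in ATBI_aCD49d. The clonal difference from other cells was then -39.2 points in ATBI_Isotype and 13.4 in ATBI_aCD49d, and the difference of TRBV12-1 from TRBV12-2 was -10.8 points in ATBI_Isotype and changed sign to 4.76 in ATBI_aCD49d. For the difference between ages, the difference from other cells and that between the genes, this leave-out was chosen after seeing the data. No paired analysis was possible because a group consists of 1 library and the labels give no replicate numbers. Depth limits YTBI_Isotype most, where 1 cell is 0.397% of the beta-chain cells.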
